A study of Mus musculus with 4 samples.

Results

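The transcription factors that make skeletal muscle, and the protein that lets muscle cells fuse, were followed in brown adipose tissue (BAT) of fetal mice whose dams drank tap water or fructose water in gestation. The 10 genes were taken by name from the 22298 genes of the count table and were all found by their Ensembl identifiers. They are the PAX factors Pax3 and Pax7, the basic helix-loop-helix (bHLH) factors Myf5, Myod1, Myog and Myf6, the fusion protein Mymk (myomaker), and the MEF2 factors Mef2a, Mef2c and Mef2d. Pax3, Pax7, Myf5 and Myod1 are taken here as early regulators, and Myog, Myf6, Mymk and the MEF2 factors as differentiation regulators.

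RNA-seq was performed on BAT of C57BL/6 fetuses (C57BL/6J in the study's methods) at E18.5, with 2 libraries from control dams (tap water) and 2 libraries from dams given 20% (w/v) fructose in their water. All 4 libraries are labelled male, which the Y-linked counts given below do not bear out for the 2 fructose libraries. How many fetuses or litters each library holds is not given in the sources used here, so the p-values measure only the spread between these libraries, which may be technical. The question addressed is whether the levels of these regulators in fetal BAT differed with maternal fructose intake.

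In the embryo, PAX3 and PAX7 mark the dividing progenitors of skeletal muscle, and MYF5 and MYOD1 commit these cells to the muscle fate. MYOG and MYF6 (also called MRF4) then switch on the genes of the contractile fibre, and myomaker, a membrane protein, allows myoblasts to join into fibres. The bHLH factors bind E-boxes in DNA as dimers with E proteins, and the MEF2 factors bind AT-rich sites beside them and raise the transcription of the same muscle genes. Brown adipocytes and the muscle of the back arise from embryonic cells with a shared Myf5 history, while MEF2 factors are also made in many tissues outside muscle.

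The promoters of the 3 regulators that passed the test below are shown first because these factors are known to act on one another's promoters. Each window runs from 250 bases before to 50 bases after the transcription start in RefSeq (GRCm38.p6), 5′ to 3′ on the gene's strand, with capitals for the motif matches found in it. The searched motifs each read the same on both strands. They were the E-box CANNTG, its subtype CAGCTG, the MEF2 site YTAWWWWTAR and the SRF CArG box CCWWWWWWGG. Here N is any base, Y is C or T, W is A or T, and R is A or G. The Myog window is chr1:134289754-134290053 on the plus strand, the Mef2a window is chr7:67372809-67373108 on the minus strand, and the window of the first of 3 Mef2c starts is chr13:83503784-83504083 on the plus strand.
Myog: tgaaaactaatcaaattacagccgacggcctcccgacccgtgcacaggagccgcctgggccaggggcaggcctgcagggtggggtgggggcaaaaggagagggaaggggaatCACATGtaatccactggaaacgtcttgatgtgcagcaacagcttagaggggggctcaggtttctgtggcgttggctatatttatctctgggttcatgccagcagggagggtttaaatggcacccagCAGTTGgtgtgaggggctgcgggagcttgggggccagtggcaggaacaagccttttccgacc
Mef2a: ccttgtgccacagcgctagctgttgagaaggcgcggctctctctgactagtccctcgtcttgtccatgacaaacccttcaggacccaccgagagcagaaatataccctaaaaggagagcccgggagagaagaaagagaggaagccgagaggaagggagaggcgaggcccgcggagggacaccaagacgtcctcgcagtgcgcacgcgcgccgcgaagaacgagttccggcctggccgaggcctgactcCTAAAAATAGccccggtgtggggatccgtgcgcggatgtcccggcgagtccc
Mef2c: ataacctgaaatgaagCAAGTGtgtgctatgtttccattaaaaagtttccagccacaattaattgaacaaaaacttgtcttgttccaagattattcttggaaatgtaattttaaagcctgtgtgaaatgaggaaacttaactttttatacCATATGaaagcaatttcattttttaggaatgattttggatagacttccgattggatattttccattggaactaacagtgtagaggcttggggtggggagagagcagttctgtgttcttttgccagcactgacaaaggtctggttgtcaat

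The Myog window held 2 E-boxes, CACATG at position -138 and CAGTTG at position -12, counted by their first base from the start. It also held the letters ctatatttat, which differ from the searched MEF2 site only at the last base and so were not counted. The Mef2a window held 1 MEF2 site, CTAAAAATAG at position -2. The first Mef2c window held the E-boxes CAAGTG at position -234 and CATATG at position -100. Of the other 5 windows, the third Mef2c start had the E-box CAGATG at position -245, and the second Mef2c start and the windows of Myf5, Pax7 and Mef2d had no match to the 4 motifs. Among 32851 RefSeq promoters of this length, 72.3% held an E-box, 16.3% CAGCTG, 3.19% a MEF2 site and 1.63% an SRF CArG box. A match says only that these letters are present, and no match only that they are not in this window. Myod1, Myf6, Pax3 and Mymk had no entry in the promoter table.

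The qRT-PCR primers that the study used for 4 of the regulators show which exons such a measurement reads. Both Myod1 primers (chr7:46376724-46376743 and chr7:46376853-46376872) and both Myog primers (chr1:134290278-134290297 and chr1:134290431-134290450) lie in the coding part of exon 1 of 3 (GRCm38), with products of 149 and 173 bases. The forward Myf6 primer spans the junction of exons 2 and 3, and the reverse primer (chr10:107493421-107493440) lies in exon 3, with a product of 62 bases. The forward Mef2c primer (chr13:83625305-83625325) lies in exon 4 and the reverse primer spans the junction of exons 4 and 5 of transcript Mef2c-212, with a product of 110 bases. Capitals mark the bases of a junction primer that lie in the later exon.
Myod1 forward: ggctctctctgctcctttga
Myod1 reverse: gtagggaagtgtgcgtgctc
Myog forward: aggaagtctgtgtcggtgga
Myog reverse: aggcgctcaatgtactggat
Myf6 forward: gctaaggaagGAGGAGCAAA
Myf6 reverse: gaagaaaggcgctgaagact
Mef2c forward: atcccgatgcagacgattcag
Mef2c reverse: AACAGCacacaatctttgcct

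No other gene matched both primers of a pair. The Mef2c pair matched 10 of the 31 annotated Mef2c transcripts, whereas the RNA-seq count of Mef2c is given per gene, so the qRT-PCR and the counts do not read the same set of transcripts. Myod1, Myog and Myf6 each have 1 annotated transcript.

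The libraries held 18542897 to 23645147 counts on genes, and a gene without a count could still have a level of up to 0.122 to 0.166 CPM (3 counts of the total, for counting error only). CPM is a gene's count relative to all counts of its library, adjusted by TMM factors. The 4 Y-linked genes looked at summed to 422 and 390 counts in control but to 0 counts in both libraries of fructose, although all are labelled male. These counts do not bear out the male label of the fructose libraries. Fetal sex, as read from these genes, and the fructose water thus cannot be told apart in any value below. Mitochondrially encoded genes held 5.89% to 6.49% of the counts in control and 10.8% to 11.2% in fructose. Over the 12888 genes tested by edgeR's quasi-likelihood test, the log2 fold change rose with transcript length (Spearman's rho 0.50 across genes, which are not independent) and fell with GC content (rho -0.50), so values with both trends removed are given for the regulators and, for the other lists, as counts and where a call of a named gene changed. The brown adipocyte marker Ucp1, the heat-producing uncoupling protein, averaged 11065 ± 1923 CPM in control (SD, n = 2) against 10305 ± 989 CPM in fructose (n = 2).

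The progenitor factors were at or near 0 in these libraries. Pax3 (chromosome 1, 78101267 to 78197134, minus strand, GRCm38) had 0 counts in all 4 libraries. Pax7 (chromosome 4, 139737062 to 139833528, minus strand) had 0 and 2 counts in control against 7 and 11 counts in fructose. Both fructose libraries thus lay above both control libraries for Pax7, and Pax3 was not detectable in either group at this depth. The Pax7 counts scaled to library size gave a fructose to control ratio of 7.07, with an exact (Clopper-Pearson) 95% interval of 1.69 to 62.8 that covers counting error only. The exact two-sided permutation test over 2 against 2 libraries cannot give a p below 0.333, and none was used.

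The determination factors did not separate the groups in the same way. Myf5 (chromosome 10, 107482908 to 107486134, minus strand) had 2 and 0 counts in control and 1 and 5 counts in fructose. The groups overlapped, and the ratio of 2.36 had a counting interval of 0.421 to 23.9. Myod1 (chromosome 7, 46376474 to 46379099, plus strand), the factor that can turn fibroblasts into muscle, had 6 and 6 counts in control and 8 and 10 counts in fructose, or 0.317 and 0.333 CPM against 0.354 and 0.408 CPM. Its 4 levels lay close together, the fructose pair just above the control pair. The Myod1 ratio was 1.18, with a counting interval of 0.537 to 2.68, so a change of up to that size could not be seen at this depth.

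Pax3, Pax7, Myf5 and Myod1 were too low for the test across genes, which kept genes at 0.48 CPM or more in at least 2 libraries. Together they held 8 and 8 counts in control and 16 and 26 counts in fructose, a ratio of 2.06 (counting interval 1.13 to 3.93). Without Myod1, the sums were 2 and 2 counts against 8 and 16 counts, of which Pax7 gave most. In bulk tissue, fewer cells of a type and less RNA per cell cannot be told apart, for these genes and for those that follow.

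**Figure D1:**
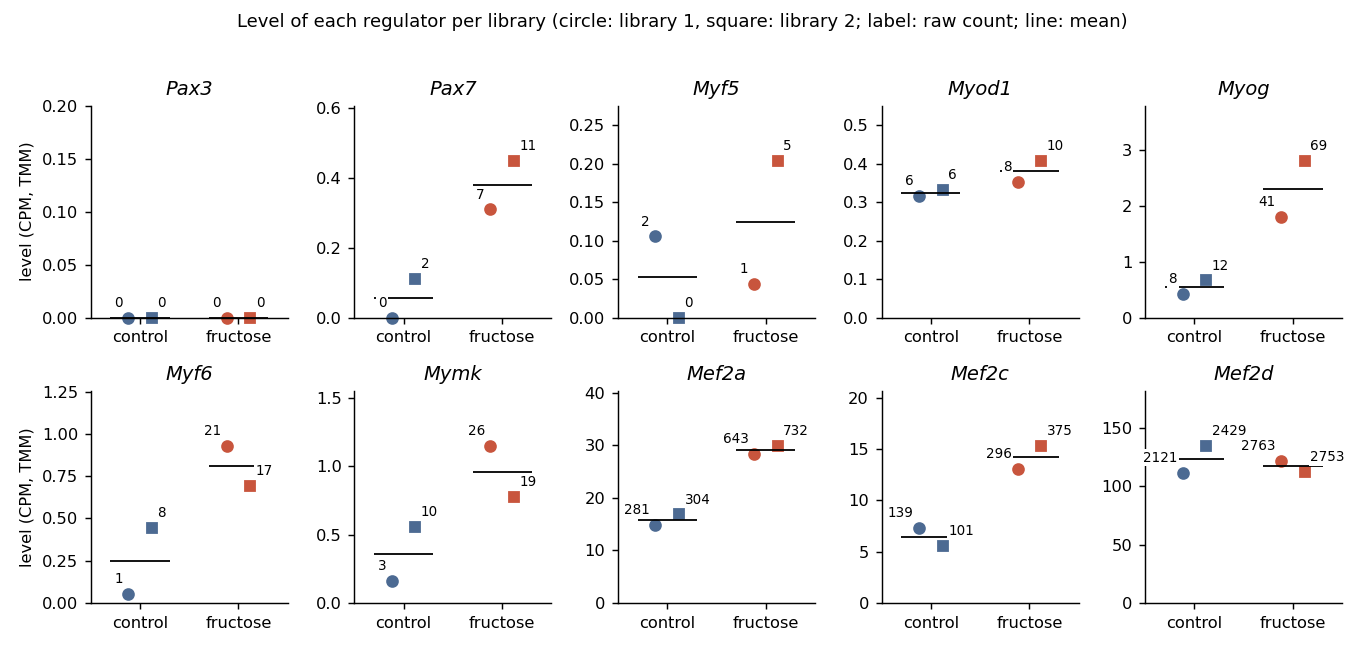
Levels of the 10 regulators in each library, in CPM after TMM normalization on the y axis of each panel (scales differ), with the raw count beside each point and a line at the mean of the 2 libraries of a group. Pax3 is at 0 throughout, Myf5 and Mef2d overlap between the groups, and in the other 7 panels both fructose libraries lie above both control libraries. Of these 7, Pax7 and Myod1 were too low to test, and the other 5 were tested. Among all tested genes, both fructose libraries lay above both control libraries for 33.4%, and below both for another 31.6%.

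With all 4 libraries, Myog had the largest fold change of the 6 tested regulators. This rank did not hold with every library left out. Without control library 2, the log2 fold change was 2.45 for Myog, 3.80 for Myf6 and 2.56 for Mymk. Without fructose library 2, it was 1.73 for Myog and 1.90 for Myf6. Myog (ENSMUSG00000026459, chromosome 1, 134289989 to 134292548, plus strand) had 8 and 12 counts in control and 41 and 69 counts in fructose, which is 0.422 and 0.665 CPM against 1.81 and 2.82 CPM. The lower fructose library was above the higher control library, and the fructose libraries also differed from each other. The log2 fold change was 2.09 (standard error 0.42), and Myog was higher in fructose (adjusted p = 0.0049, edgeR's quasi-likelihood test, adjusted over all tested genes after Benjamini and Hochberg). With both trends removed it was 2.41 (edgeR adjusted p = 0.0057), and with DESeq2 2.08 (adjusted p = 0.0099). Without fructose library 2, it was 1.73 and did not pass (edgeR adjusted p = 0.0558).

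Myf6, the other differentiation factor, and Mymk did not pass the test. Myf6 (chromosome 10, 107492853 to 107494737, minus strand) had 1 and 8 counts in control and 21 and 17 counts in fructose, or 0.0528 and 0.444 CPM against 0.929 and 0.694 CPM. Mymk (chromosome 2, 27061636 to 27072179, minus strand) had 3 and 10 counts in control and 26 and 19 counts in fructose, or 0.158 and 0.555 CPM against 1.15 and 0.776 CPM. For both genes, control library 1 was the lowest and fructose library 1 the highest, and the groups did not overlap. The log2 fold changes were 1.70 for Myf6 (standard error 0.68, edgeR adjusted p = 0.084) and 1.43 for Mymk (standard error 0.58, edgeR adjusted p = 0.089), and both unadjusted p-values were under 0.05. Their ratios of scaled counts were 3.31 (counting interval 1.58 to 7.80) and 2.72 (1.44 to 5.49), so counting error alone did not cover a ratio of 1, while the spread between libraries left both above the threshold.

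These values moved most when a control library was left out. Without control library 1, the log2 fold change was 0.85 for Myf6 and 0.78 for Mymk, and without control library 2 it was 3.80 for Myf6 (edgeR adjusted p = 0.0106) and 2.56 for Mymk (edgeR adjusted p = 0.0230). Without fructose library 1, it was 1.49 for Myf6 and 1.13 for Mymk, and without fructose library 2, it was 1.90 and 1.69. DESeq2 gave unadjusted p-values of 0.107 for Myf6 and 0.119 for Mymk and no adjusted ones. Myf6 and Myf5 are neighbours on the same strand, 6718 bases apart.

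Myog, Myf6 and Mymk together held 12 and 30 counts in control and 88 and 105 counts in fructose, a ratio of 3.61 (counting interval 2.57 to 5.16). Both fructose libraries reached the level of the filter for each of these genes, and so did 1 control library for Myog, 1 for Mymk and 0 for Myf6. Myf6 was thus kept through the fructose group alone. As the filter needs 2 libraries, the control group alone would not have kept Myog or Mymk either. This favours a difference for all of these genes, and the calls and the count of tested regulators are read with that limit. The count ratio of Myog to Myod1 was 1.33 and 2.0 in control against 5.13 and 6.90 in fructose, on 6 to 10 Myod1 counts each.

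The MEF2 factors were the most abundant of the regulators, and they did not move alike. Mef2a (chromosome 7, 67231163 to 67372858, minus strand) had 281 and 304 counts in control and 643 and 732 counts in fructose, or 14.8 and 16.9 CPM against 28.4 and 29.9 CPM. Its groups were far apart relative to the spread within each. Mef2a was higher in fructose, by 0.88 on the log2 scale (standard error 0.12, edgeR adjusted p = 0.00059).

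Mef2c (chromosome 13, 83504034 to 83667080, plus strand) had 139 and 101 counts in control and 296 and 375 counts in fructose, or 7.34 and 5.60 CPM against 13.1 and 15.3 CPM. Both fructose libraries were again well above both control libraries. Mef2c was higher in fructose, by 1.13 on the log2 scale (standard error 0.17, edgeR adjusted p = 0.0012). Leaving out any library kept the Mef2a value at 0.79 to 0.98 and the Mef2c value at 0.95 to 1.34.

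Mef2d (chromosome 3, 88142372 to 88172086, plus strand) had 2121 and 2429 counts in control and 2763 and 2753 counts in fructose, or 112 and 135 CPM against 122 and 112 CPM. The groups overlapped, with control library 2 the highest. The log2 fold change was -0.07 (standard error 0.10, edgeR adjusted p = 0.62), and its sign turned with the GC trend removed (0.05) and without control library 2 (0.07). The count ratio of Mef2a to Mef2d was 0.132 and 0.125 in control against 0.233 and 0.266 in fructose, and that of Mef2c to Mef2d 0.0655 and 0.0416 against 0.107 and 0.136. Such ratios do not depend on a library's scaling factor, and neither overlapped between the groups. The trend with GC content is not removed from them, and Mef2d has 55.0% GC against 42.0% for Mef2a and 40.8% for Mef2c.

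The fold changes of Mef2a and Mef2c were smaller once the trends with transcript length and GC content were removed, while that of Myog was not. The longest transcripts of Mef2a (5538 bases, 42.0% GC) and Mef2c (6277 bases, 40.8% GC) are long and AT-rich, and that of Mef2d is as long (5401 bases) but has 55.0% GC. Those of Myog (1495 bases, 54.8% GC), Myf6 (1263 bases, 46.4% GC) and Mymk (1382 bases, 54.8% GC) are short. With both trends removed from each library, the log2 fold change was 0.37 for Mef2a (edgeR adjusted p = 0.087) and 0.50 for Mef2c (edgeR adjusted p = 0.063), and neither passed, although both values stayed above 0 by more than their standard errors (0.12 and 0.15). For Mef2d it was then -0.17 (edgeR adjusted p = 0.31), for Myf6 1.86 (edgeR adjusted p = 0.114) and for Mymk 1.75 (edgeR adjusted p = 0.079).

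**Figure D2:**
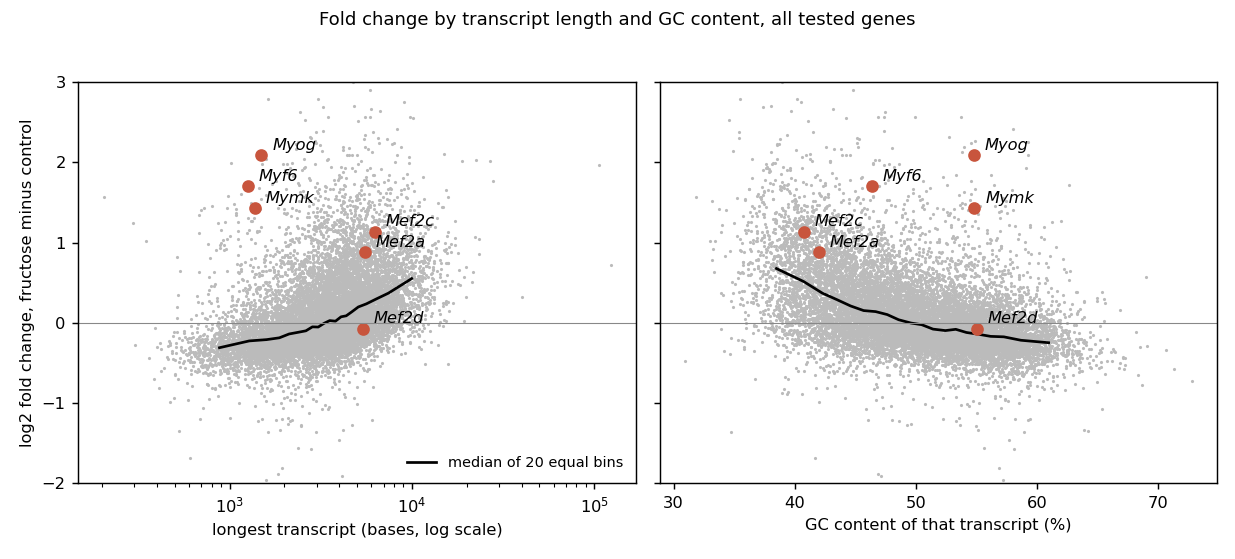
Log2 fold change (fructose minus control) of all tested genes in grey against the length of the longest transcript in bases (log axis, left) and its GC content in percent (right), with the median of 20 bins of equal gene number as a line and the 6 tested regulators in red; genes outside -2 to 3 are not drawn. Myog, Myf6 and Mymk lie far above the line in the left panel, and Mef2a and Mef2c lie nearer to it in the right panel.

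Of the 10 regulators, 6 were tested, and 3 of these were higher in fructose and 0 lower at an adjusted p under 0.05. Over all tested genes, 15.5% were higher and 10.7% lower in fructose by this rule. With the thresholds of the study's methods, an unadjusted p under 0.05 and a fold change above 1.3, edgeR called 5 regulators higher and 0 lower, where it called 17.6% of all genes higher and 6.18% lower. With both trends removed, only Myog was called at an adjusted p under 0.05, where 4.08% of all genes were called higher and 4.9% lower. DESeq2 called Myog, Mef2a and Mef2c at an adjusted p under 0.05, where it called 10.4% of the genes given an adjusted p higher. The groups did not overlap for 5 of the 6 tested regulators, with fructose the higher in each, and this was so for 33.4% of all tested genes, with fructose the lower in another 31.6%.

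**Figure D3:**
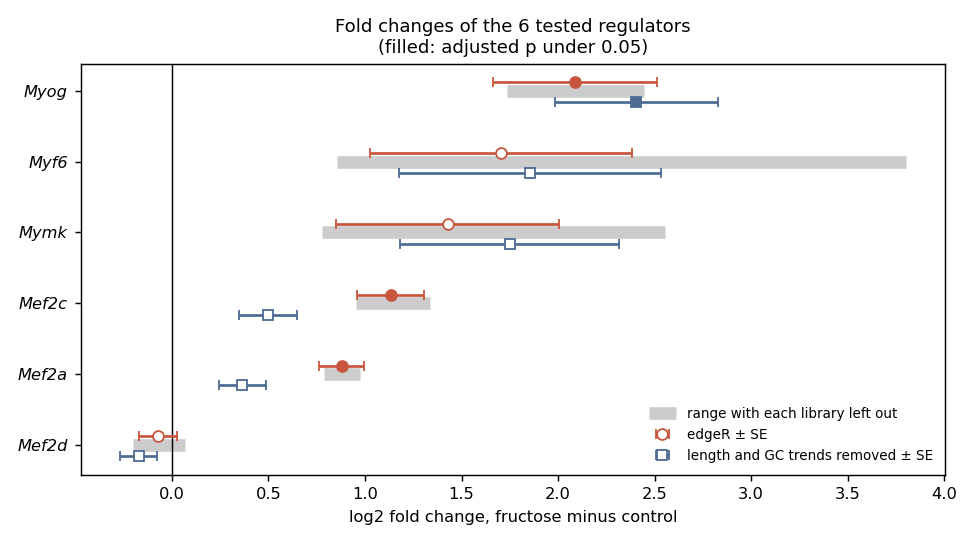
Log2 fold changes (fructose minus control) of the 6 tested regulators, with edgeR values in red and values with the length and GC trends removed in blue, bars of 1 standard error, filled points at an adjusted p under 0.05, and grey bands for the range with each library left out in turn. Myog stays near 2 under both fits, Mef2a and Mef2c fall to 0.37 and 0.50 with the trends removed, and the bands of Myf6 and Mymk are the widest.

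Per kilobase of the longest transcript, the levels in control were ordered Mef2d (22.8 ± 3.0 CPM per kilobase, SD, n = 2), Mef2a (2.86 ± 0.26), Mef2c (1.03 ± 0.20), Myog (0.364 ± 0.115), Mymk (0.258 ± 0.203), Myf6 (0.197 ± 0.219), Myod1 (0.174 ± 0.006), Myf5, Pax7 and Pax3. From Myog down to Myod1, neighbours in this order overlapped between libraries, as did Myf5, Pax7 and Pax3. In fructose the order was Mef2d (21.7 ± 1.3 CPM per kilobase), Mef2a (5.26 ± 0.19), Mef2c (2.26 ± 0.25), Myog (1.55 ± 0.47), Mymk (0.697 ± 0.191), Myf6 (0.642 ± 0.131), Myod1 (0.205 ± 0.021), Pax7, Myf5 and Pax3. There, Myog lay above Mymk in every library, and only Mymk with Myf6 and Pax7 with Myf5 overlapped. Mef2d was thus several times more abundant per length than any other regulator in both groups.

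Overlapping annotation touches Mef2a and Mef2d. The exons of Mef2a share up to 302 bases with those of Lysmd4 on the opposite strand, and how strand was treated in the counting is not given in the sources used here. Lysmd4 had 265 and 290 counts in control and 356 and 411 counts in fructose (log2 fold change 0.11, standard error 0.13), which did not pass (edgeR adjusted p = 0.56). The exons of Mef2d share up to 531 bases with the antisense gene 1700113A16Rik, which is not among the genes analysed here.

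Markers of skeletal muscle fibres were higher in the same libraries. Of 25 such markers, 24 were higher in fructose and 0 lower (edgeR, adjusted p under 0.05), where 15.5% and 10.7% of all genes were. Their median log2 fold change was 1.41 against 0.00 over all tested genes. With both trends removed, 21 were higher and 0 lower, where 4.08% and 4.9% of all genes were. Myh2, named after its values were seen, was kept by the filter through the fructose libraries alone (3 and 3 counts in control against 64 and 38). Acta1, the skeletal muscle actin, averaged 114 ± 27 CPM in control against 253 ± 73 CPM in fructose (SD, n = 2 each), with a log2 fold change of 1.15 (edgeR adjusted p = 0.0013). Mylpf, a fast-fibre myosin light chain, had a log2 fold change of 0.98 (edgeR adjusted p = 0.00066), and Des (desmin) had 0.27, which did not pass (edgeR adjusted p = 0.066). The values with both trends removed were 1.49 for Acta1, 1.38 for Mylpf and 0.43 for Des, and Des then passed as well (edgeR adjusted p = 0.018). Summed over the list, the level was 366 and 478 CPM in control and 1078 and 816 CPM in fructose, so fructose library 1 was the highest in fibre markers and fructose library 2 the highest in Myog.

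Set against the summed counts of these 25 markers, Pax7 and Myog stayed higher in both fructose libraries, Myod1 and Mef2d were lower in both, and Myf5, Myf6, Mymk, Mef2a and Mef2c overlapped. Per 1000 fibre marker counts, Myog was at 1.15 and 1.39 in control against 1.68 and 3.45 in fructose, still without overlap. Myod1 was at 0.865 and 0.696 in control against 0.328 and 0.50 in fructose, with the fructose libraries now the lower. Myf6 had 0.144 and 0.928 against 0.861 and 0.851, and Mymk had 0.433 and 1.16 against 1.07 and 0.951. The control libraries of these genes spanned the fructose libraries. Mef2a had 40.5 and 35.3 against 26.4 and 36.6, and Mef2c had 20.0 and 11.7 against 12.1 and 18.8, both overlapping. Pax7 had 0 and 0.232 against 0.287 and 0.551, on 0 to 11 counts, and Myf5 had 0.288 and 0 against 0.0410 and 0.250. Mef2d, the most abundant regulator, had 306 and 282 against 113 and 138. The marker genes summed to 6933 and 8619 counts in control and to 24388 and 19981 counts in fructose. A gene with an unchanged level in CPM is thus lower in fructose by this scaling. The share of all genes that separate in this way was not computed. The Pax7, Myf5 and Myod1 values rest on 0 to 11 counts. These quotients are descriptions, and what part the amount of muscle in a sample had in any of the fold changes was not tested.

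**Figure D4:**
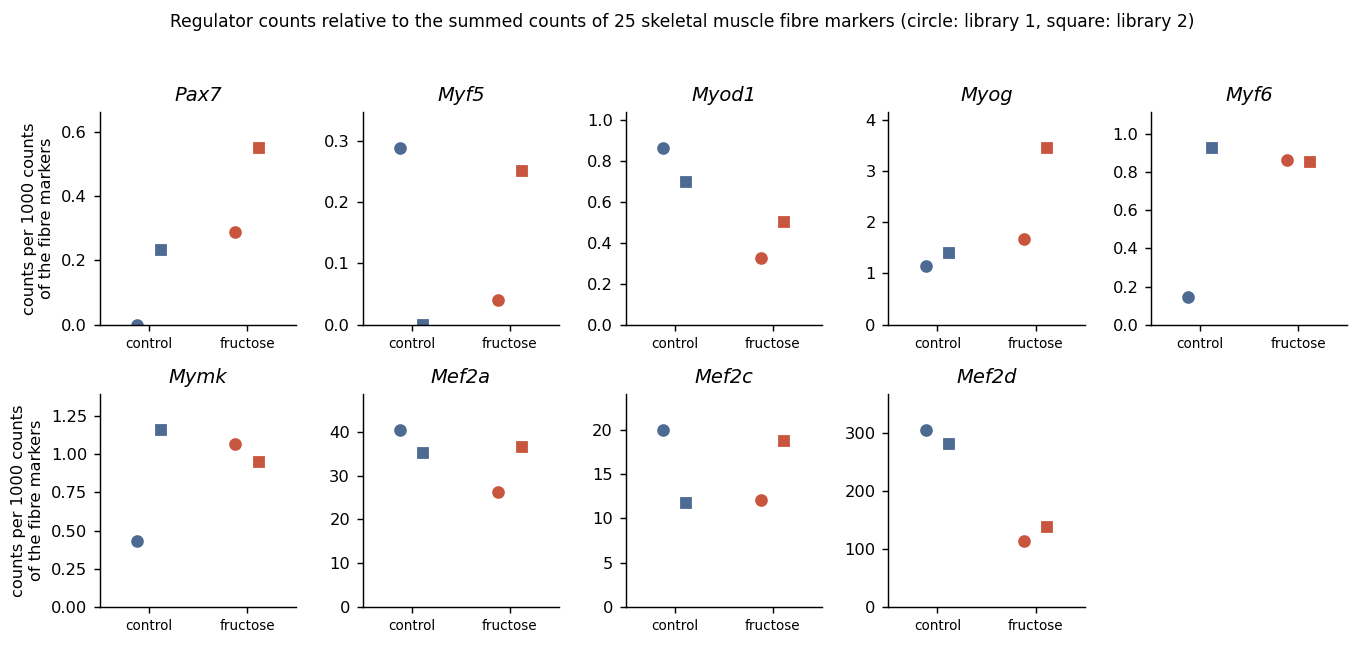
Counts of 9 regulators (all but Pax3, at 0) per 1000 summed counts of 25 skeletal muscle fibre markers, by group, with a circle for library 1 and a square for library 2. Pax7 and Myog are higher in both fructose libraries than in both control libraries, Myod1 and Mef2d are lower in both, and Myf5, Myf6, Mymk, Mef2a and Mef2c overlap. The marker sum is itself higher in fructose, so a gene with an unchanged level in CPM is lower by this scaling.

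The partners and inhibitors of the bHLH factors showed no common direction. Of 19 E proteins, ID proteins and related repressors, all tested, 3 were higher, 0 were lower and 16 did not pass, with a median log2 fold change of 0.00. Among all genes, 15.5% were higher and 10.7% lower, or 4.08% and 4.9% with both trends removed. The most abundant were Bhlhe40 (0.31, edgeR adjusted p = 0.094), a bHLH repressor, and Id1 (-0.07, edgeR adjusted p = 0.55) and Id3 (-0.14, edgeR adjusted p = 0.31), which trap E proteins away from the myogenic factors. The 3 that were higher, named after their values were seen, were the E proteins Tcf4 (0.87, edgeR adjusted p = 0.0036) and Tcf12 (0.58, edgeR adjusted p = 0.0034) and the E-box repressor Zeb1 (0.51, edgeR adjusted p = 0.0045). None of these passed with both trends removed, where their values were 0.10, 0.13 and 0.18 and the 1 gene called in this list was Id1 (0.28, edgeR adjusted p = 0.049).

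Of 21 MEF2 cofactors, repressors and kinases, 19 were tested, and 4 were higher and 1 lower, where 15.5% and 10.7% of all genes were. Their median log2 fold change was 0.02. Hdac5, a class IIa histone deacetylase that binds MEF2 and represses its targets, averaged 116 ± 3 CPM in control against 95.2 ± 2.9 CPM in fructose (SD, n = 2 each) and was lower, with a log2 fold change of -0.29 (edgeR adjusted p = 0.021). Mapk14, the p38 kinase that phosphorylates MEF2 proteins, had 0.02 (edgeR adjusted p = 0.87) and the arginine methyltransferase Carm1 had -0.19 (edgeR adjusted p = 0.14). The 4 that were higher, named after their values were seen, were the acetyltransferases Ep300 (0.82) and Kat2b (0.57), the SRF cofactor Mrtfb (0.41) and Hdac9 (1.53, edgeR adjusted p = 0.023), another class IIa deacetylase, which had 12 and 7 counts in control and 36 and 34 counts in fructose. Of the class IIa members, Hdac5 was thus lower and Hdac9 higher. Hdac4 (0.08, edgeR adjusted p = 0.68) and Hdac7 (-0.10, edgeR adjusted p = 0.39), named to complete the class, did not pass. Hdac5 did not pass when scaled by library size alone (-0.23, edgeR adjusted p = 0.059). Hdac9 reached the filter level in 1 control library and in both fructose libraries, so the control group alone would not have kept it, which favours a difference. With both trends removed, Ep300 (0.40, edgeR adjusted p = 0.024) and Hdac5 (-0.33, edgeR adjusted p = 0.027) passed and Hdac9 did not (1.01, edgeR adjusted p = 0.17), and Hdac9 did not pass with DESeq2 either (adjusted p = 0.12). Mef2b, the remaining MEF2 gene, was too low to test, with 2 and 5 counts in control and 0 and 3 counts in fructose.

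Upstream of the early regulators, 10 of 19 homeobox, Eya-family and other progenitor genes were tested. Of these, 2 were higher and 1 lower, where 15.5% and 10.7% of all genes were. Among the most abundant, Eya3 (0.11, edgeR adjusted p = 0.39) and Six5 (-0.31, edgeR adjusted p = 0.095) did not pass. Chosen after their values were seen, Dach1 (1.49, edgeR adjusted p = 0.0024) and Met (1.09, edgeR adjusted p = 0.0045), the receptor that migrating limb muscle progenitors need, were higher. Eya2, a transcriptional coactivator, was lower (-1.29, edgeR adjusted p = 0.013), with 48 and 56 counts in control and 30 and 24 counts in fructose. With both trends removed, Dach1 alone passed (1.14, edgeR adjusted p = 0.018).

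Beside Mymk, 12 of 18 fusion and adhesion genes were tested, and 5 were higher and 1 lower, where 15.5% and 10.7% of all genes were. Itga7, the laminin receptor subunit of muscle, was lower (-0.25, edgeR adjusted p = 0.042), Dock1, a guanine exchange factor used in fusion, was higher (0.37, edgeR adjusted p = 0.011), and Kirrel did not pass (0.14, edgeR adjusted p = 0.37). The other 4 that were higher, named after their values were seen, were Cav3 (1.61, edgeR adjusted p = 0.021), the muscle caveolin, with 9 and 16 counts against 60 and 37 counts, and Dock5 (0.59), Jam2 (0.45) and Cdh2 (0.45). Itga7 did not pass when scaled by library size alone (-0.19, edgeR adjusted p = 0.11), and Cav3 alone of this list passed with both trends removed (1.98, edgeR adjusted p = 0.017), but not with DESeq2 (adjusted p = 0.063). Cav3 reached the filter level in 1 control library and in both fructose libraries, so the control group alone would not have kept it, which favours a difference. Mymx, the peptide that works with myomaker, had 1 and 1 counts in control and 2 and 4 counts in fructose and was not tested.

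Of 9 neuromuscular junction and acetylcholine receptor genes, 7 were tested, and 2 were higher and 0 lower, where 15.5% and 10.7% of all genes were. Chrnd and Chrng, the delta subunit and the fetal gamma subunit of the muscle receptor, were the 2 that were higher, and they were named after their values were seen. Chrnd had 3 and 5 counts in control and 25 and 25 counts in fructose (log2 fold change 2.26, edgeR adjusted p = 0.011), and Chrng had 2 and 3 counts against 14 and 19 counts (2.32, edgeR adjusted p = 0.022). Both also passed with both trends removed (edgeR adjusted p = 0.018 and 0.035), as Myog did. Both were kept by the filter through the fructose libraries alone, with 0 control libraries at its level, which favours a difference, and DESeq2 gave neither an adjusted p. The more abundant Lrp4 (0.42), Chrnb1 (0.52) and Chrna1 (0.58) did not pass (edgeR adjusted p = 0.39, 0.37 and 0.41).

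Over these 5 lists, 67 of 86 genes were tested and 16 were higher and 3 lower, with a median log2 fold change of 0.12, where 15.5% and 10.7% of all genes were higher and lower (17 and 1 when scaled by library size alone, against 2242 and 859 of all genes). With the length trend alone removed, 7 were higher and 6 lower, where 1150 and 990 of all 12888 tested genes were. With both trends removed, 6 were higher and 1 lower, where 4.08% and 4.9% of all genes were.

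**Figure D5:**
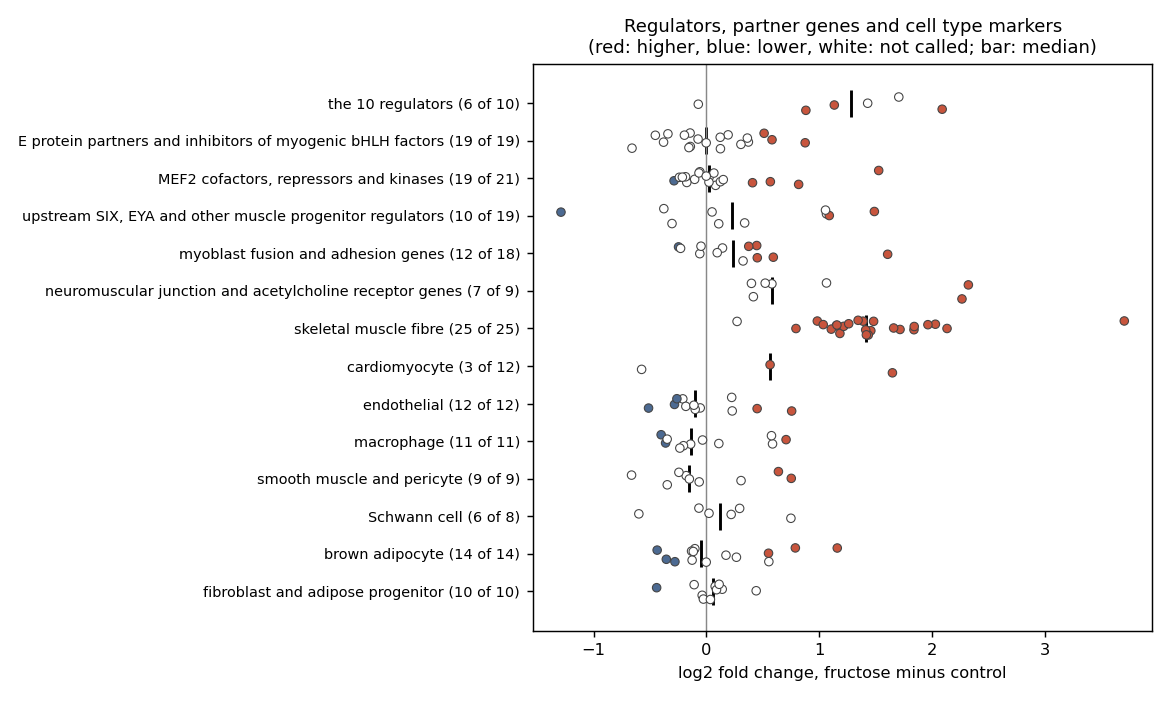
Log2 fold change (fructose minus control) of each tested gene of the 10 regulators, 5 lists of partner genes and 8 lists of cell type markers, with the tested and listed numbers beside each name, red for higher and blue for lower at an edgeR adjusted p under 0.05, and a bar at the median of each list. The skeletal muscle fibre markers (median 1.41 over 25 genes) lie to the right, and most partner and other cell type lists spread around 0. The median of the 6 tested regulators is 1.28. It includes Myog, Myf6 and Mymk, which the control libraries alone would not have kept, and leaves out the 4 regulators too low to test. It is therefore not read as a shift of the 10 regulators.

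MEF2 factors are also made in endothelial cells, macrophages and smooth muscle. Endothelial and macrophage markers had calls in both directions. Counts of calls in these and the following cell type lists are read against 15.5% higher and 10.7% lower over all genes. With both trends removed, the shares were 4.08% and 4.9%. Of 12 endothelial markers, 2 were higher and 3 lower in fructose, and their summed level was 1919 and 1882 CPM in control and 1699 and 1783 CPM in fructose. Removing both trends left 1 higher and 1 lower. The most abundant endothelial markers, Cdh5 (-0.06, edgeR adjusted p = 0.66) and Pecam1 (-0.21, edgeR adjusted p = 0.083), did not pass. Of 11 macrophage markers, 1 was higher and 2 were lower, with sums of 264 and 198 CPM against 202 and 210 CPM, and 0 were called in either direction by edgeR with both trends removed. Csf1r (-0.03, edgeR adjusted p = 0.85) and Lyz2 (-0.35, edgeR adjusted p = 0.12) were the most abundant of them and did not pass.

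Of 9 smooth muscle and pericyte markers, 2 were higher and 0 lower, with sums of 445 and 455 CPM against 461 and 434 CPM, and the most abundant, Pdgfrb (-0.06) and Cspg4 (-0.15), did not pass. After removal of both trends, 0 were higher and 1 was lower, which was Cspg4 (-0.39, edgeR adjusted p = 0.038). Of 12 cardiomyocyte markers, 3 could be tested and 2 were higher, Myl4 and Tnnt2. Tnnt2, named after its values were seen, had 10 and 5 counts in control and 37 and 23 counts in fructose. At 0.528 and 0.277 CPM in control, it would not have been kept by the control group alone, which favours a difference. The cardiac factors Nkx2-5, Gata4 and Hand2 and the peptide gene Nppb had 0 counts in all libraries. The list sum was 12.8 and 15.2 CPM in control and 17.0 and 15.6 CPM in fructose, of which Myl4 (0.56, edgeR adjusted p = 0.046) and Tbx5 (-0.57, edgeR adjusted p = 0.079) were the largest parts. Without the trends, 0 were called by edgeR, and Myl4 had 0.63 (edgeR adjusted p = 0.051). Of 8 Schwann cell markers, 6 were tested and 0 passed with edgeR, with the adjusted p or with the unadjusted p and fold threshold, or with both trends removed, and Erbb3 had 0.29 and Sox10 0.22.

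Of 14 brown adipocyte markers, 3 were higher and 3 lower, with Ucp1 at -0.10 (edgeR adjusted p = 0.59) and Fabp4 at -0.13 (edgeR adjusted p = 0.36). Once both trends were removed, 3 were higher and 1 lower, Ucp1 had 0.03, and Fabp4 was lower (-0.46, edgeR adjusted p = 0.018). Of 10 fibroblast and adipose progenitor markers, 0 were higher and 1 was lower, with Col1a1 at 0.03 and Col1a2 at 0.08, and with both trends removed 0 were higher and 2 lower. The part of any of these cell types in the Mef2a and Mef2c values was not tested.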

How the data were processed

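The authors deposited raw read counts per gene, not normalized and not pooled. Per the submitters' processing notes, reads were cleaned with fastp, aligned to mm10 with Bowtie2 2.0.0.5 and TopHat2 2.0.0, and assembled with StringTie 2.2.0. Per the study's methods, the assemblies were joined with Cuffmerge and the gene counts taken from the merged file. The program that counted, its treatment of strand and of reads matching several genes, and the annotation release are not given in the sources used here.

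Ensembl identifiers were matched to GENCODE M21 (GRCm38) with Python 3.11.15, and 43 of 22298 genes had no match. The 201 listed genes, which include the 10 regulators, were chosen with earlier results of these data known. Genes kept by filterByExpr (12888) were fitted with edgeR 4.0.16 (R 4.3.3), TMM normalization and no covariate, two-sided, with Benjamini-Hochberg adjustment over all tested genes. A log2 fold change is fructose minus control. Libraries differed by more than sampling noise within each group (chi-square per degree of freedom 11.4 in control and 7.47 in fructose). Trend removal used a lowess fit (span 0.3) of each library on transcript length and GC content, as offsets. Other alternatives were DESeq2 1.42.0, its size factors, library size alone, library sizes without mitochondrial and haemoglobin genes, other filters on low counts, the replicate number as a block and each library left out. The scripts were tested on simulated data.

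Named genes are the 10 regulators, the 3 genes of each partner list and of the fibre list with the highest mean CPM and the 2 of each other cell type list, and others are named as chosen after their values were seen. A gene that this rule selects is not reported here.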

Additional observations from a re-analysis of the deposited data

How the results depend on the processing

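With 2 libraries per group, a lone left-out library changed calls. The number of regulators called (3 of 6 tested) was 2 to 5 with each library left out, where the remaining library of a group is assumed to vary like the other group, and 5 without control library 2. It was 5 with an unadjusted p under 0.05 and a fold change above 1.3, and 1 with both trends removed, with or without the replicate block. Of the partner genes, 19 were called, against 11 with DESeq2, 7 with both trends removed, 11 with the length trend removed and the replicate block, 7 with both trends removed and the block, and 9 to 21 with a library left out (9 without fructose library 2, 11 without fructose library 1). Of the fibre markers, 24 were called, and 20 to 25 with a library left out. The regulators too low to test were 4, and 1 without the filter, 7 with at least 10 counts in every library, and 3 to 4 with a library left out. Mef2d reversed sign, without passing, to 0.0543 with the GC trend removed, 0.0593 with the GC trend removed and the block, and 0.0674 without control library 2, with a range of -0.203 to 0.0674 over the libraries left out. Scaled by library size alone, the median log2 fold change of all genes was 0.06, and 72.3% of all calls were higher in fructose, against 59.2% with TMM. The counts above are read against those over all genes. There, edgeR called 2001 higher and 1379 lower, DESeq2 1280 and 1084, and edgeR with both trends removed 526 and 631. Motif shares in 150 bases before the start were 47.7% for the E-box, 8.39% for CAGCTG, 1.67% for the MEF2 site and 0.916% for the SRF CArG box, as a shorter window must give fewer.

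The labels give both groups the numbers 1 and 2, but nothing says that they pair, and the deviations of same-numbered libraries from their group means had a correlation of -0.05. With the replicate block, Myf6 passed (log2 fold change 1.74, edgeR adjusted p = 0.0467), and Mymk passed with the GC trend removed as well (1.56, edgeR adjusted p = 0.0373). The cause of these moves was not tested.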
